A study of Homo sapiens with 6 samples.

Results

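The vascular endothelial growth factor (VEGF) family transcripts described here are 4 ligands (VEGFA, VEGFB, VEGFC and PGF), 3 receptor tyrosine kinases (FLT1, KDR and FLT4) and 2 neuropilin co-receptors (NRP1 and NRP2). They were taken by gene symbol, 9 of the 45372 Ensembl gene IDs listed, and all 9 were among the 13680 genes that could be tested. RNA-seq came from human umbilical vein endothelial cells (HUVECs), primary wild-type vein endothelium used at passage 3 in EGM-2, a growth medium whose supplements include VEGF. Cells received, by lipid transfection, 50 nM of a miR-409-3p mimic (3 libraries) or 50 nM of a non-specific control RNA (3 libraries), with a labelled time of 48 hours. All titles call the cells non treated. The labels call the 3 libraries of a group biological replicates and do not say whether they are separate donors. The p-values set group differences against the spread between libraries, and whether that spread includes differences between donors is not known.

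VEGF ligands are secreted dimers that bind receptors on endothelial cells. VEGFA acts mainly through KDR, the receptor that drives endothelial growth, migration and permeability. FLT1 binds VEGFA, VEGFB and PGF tightly but signals weakly, and a soluble form of it acts as a decoy. VEGFC acts through FLT4 and, once processed, KDR, and is best known in lymphatic vessels. Neuropilins bind both VEGFs and class 3 semaphorins and lack kinase activity of their own. On GRCh38 (GENCODE 29), VEGFA (chr6:43770184-43786487), VEGFB (chr11:64234538-64238793) and NRP2 (chr2:205681990-205798133) lie on the plus strand. VEGFC (chr4:176683538-176792727), PGF (chr14:74941834-74955784), FLT1 (chr13:28300344-28495145), KDR (chr4:55078259-55125595), FLT4 (chr5:180601506-180649624) and NRP1 (chr10:33177492-33336262) lie on the minus strand.

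No member of the family was called higher or lower in mimic cells. By limma with Benjamini-Hochberg adjustment over all tested genes, 0 of 9 members passed, where 0.431% of the 13680 tested genes did. At an unadjusted p under 0.05 there were 0 members as well, against 10.7% of tested genes. Of the fold changes, 4 were above 0 and 5 below, and their median log2 fold change was -0.01, against -0.02 for all tested genes. The largest fold change of a member in either direction was 0.13 on the log2(TPM + 1) scale, where TPM is reads per gene length as a share of the library. With voom on recovered reads 0 members passed as well, though KDR had an unadjusted p of 0.0367 there. In bulk RNA, fewer cells of a type and less RNA per cell cannot be told apart. BTG2, the antiproliferative gene named in the series title, measured 53.6, 55.6 and 45.7 TPM in mimic libraries, against 81.0, 78.9 and 80.0 TPM in control libraries, and fell (log2 fold change -0.63, limma adjusted p = 0.0143).

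A microRNA pairs with messenger RNA mainly through its seed, bases 2 to 8. The sequence of the microRNA and the best or most widely shared matches to its seed in annotated 3′ ends of the family are shown for comparison with the expression values. In the RefSeq sequence below (build GRCh38.p14, plus strand of chr14:101065346-101065367), capitals mark the seed.
hsa-miR-409-3p: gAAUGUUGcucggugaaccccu
Capitals in the next lines mark the whole match: AACATT as the 6mer, CAACATT as the 7mer-m8, and AACATTA as the 7mer-A1. The letters of the 6mer and 7mer-m8 pair with the seed, whereas the final A of the 7mer-A1 lies opposite base 1 of the microRNA, outside the seed, and does not pair with it. The sequences are read on the coding strand from GENCODE 29 transcripts on GRCh38.
KDR 6mer: ttattaaagAACATTgaaaaactt
PGF 6mer: gaagatcagAACATTcagctctgg
FLT1 7mer-A1: atagttgctAACATTAaaaaagcaa
NRP2 7mer-A1: atttaaataAACATTAtaccagaga
VEGFB 7mer-m8: aagcaagtcCAACATTctaactcag
Each position given here is that of the whole printed stretch, with the match in its middle. The KDR site lay within chr4:55078484-55078507 on the minus strand, in both annotated coding transcripts with a 3′ untranslated region. The PGF site, in all 3 such transcripts, lay within chr14:74942187-74942210 on the minus strand. The FLT1 7mer-A1, within chr13:28388030-28388054 on the minus strand, was found in the transcripts that encode 687 and 665 residues. Both proteins are shorter than the full receptor of 1338 residues. The transcript of the full receptor held 0 matches. The NRP2 7mer-A1, within chr2:205798107-205798131 on the plus strand, lay in 1 of 5 coding transcripts with a 3′ untranslated region. That transcript encodes 931 residues. The VEGFB 7mer-m8, within chr11:64237819-64237843 on the plus strand, lay in a short transcript for 31 residues.

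Over all coding transcripts with a 3′ untranslated region of at least 30 nt, the family held 12 distinct matches and no 8mer (CAACATTA). Counting the longest 3′ untranslated region of each gene, 1 of 9 members, FLT1, had a 7mer or 8mer, 5 had a 6mer at best (PGF, KDR, FLT4, NRP1 and NRP2) and 3 had none (VEGFA, VEGFB and VEGFC). The FLT4 6mer lay in the transcript for 295 residues, whereas those for 1363, 1298 and 1306 residues held no match. Among 11855 tested protein-coding genes, 22.8% had a 7mer or 8mer and 45.4% any match. BTG2 held 0 matches in its 1 annotated coding transcript with a 3′ untranslated region, which has 2164 nt. Values are per gene, so the soluble and full-length forms of FLT1, or the forms of NRP2, were not told apart. Matches are letters in an annotation and were not tested as sites.

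Among the ligands, PGF transcripts far outnumbered the others and VEGFA was lowest. PGF, placental growth factor, a ligand of FLT1, measured 252, 251 and 268 TPM in mimic libraries, against 255, 266 and 256 TPM in control libraries. The groups overlapped, and the log2 fold change was -0.01 (95% interval -0.12 to 0.10, limma adjusted p = 0.981). VEGFB, which also binds FLT1, measured 69.6, 60.3 and 71.2 TPM in mimic libraries, against 74.0, 65.0 and 65.1 TPM in control libraries. Both groups spanned about the same range, with a log2 fold change of -0.02 (interval -0.21 to 0.16, adjusted p = 0.973).

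VEGFC measured 32.0, 31.8 and 29.2 TPM in mimic libraries, against 32.8, 32.0 and 37.8 TPM in control libraries. Its highest mimic library and lowest control library were level at 32.0 TPM, and control library 3 was the high one. The log2 fold change was -0.13, the lowest of the family together with VEGFA, with an interval of -0.31 to 0.04 and a limma adjusted p of 0.625. VEGFA measured 3.41, 3.17 and 3.20 TPM in mimic libraries, against 3.09, 3.95 and 4.02 TPM in control libraries. Control library 1 lay below all mimic libraries and the other 2 control libraries above them. Its log2 fold change of -0.13 had the widest interval of the family, -0.40 to 0.14 (adjusted p = 0.825). VEGFD, the other lymphatic ligand, was at 0.309 to 0.506 TPM in mimic libraries and 0.106 to 0.387 TPM in control libraries, 22 and 13 reads in all, and was too low to test.

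Of the receptors, KDR was the most abundant and had the smallest p of the family. It measured 374, 393 and 364 TPM in mimic libraries, against 330, 352 and 366 TPM in control libraries. Mimic library 3 lay just below control library 3, so the groups overlapped. The log2 fold change was 0.11 (standard error 0.06, interval -0.02 to 0.24), with an unadjusted p of 0.0876 and a limma adjusted p of 0.567. FLT1 measured 108, 118 and 104 TPM in mimic libraries, against 103, 109 and 111 TPM in control libraries. The 2 ranges overlapped for most of their length, and the log2 fold change was 0.03 (interval -0.12 to 0.17, adjusted p = 0.961).

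FLT4, the receptor of VEGFC, was the 1 member whose groups did not overlap. Groups stood apart in 15.7% of tested genes, and with the mimic libraries higher in 5.16%. It measured 33.6, 33.3 and 33.1 TPM in mimic libraries, against 29.4, 32.5 and 32.6 TPM in control libraries. The mimic libraries were nearly level, and control library 1 stood apart from the other 2 control libraries. FLT4 did not pass (log2 fold change 0.08, interval -0.06 to 0.22, limma adjusted p = 0.757). Of the lymphatic markers, LYVE1 measured 21.5 ± 0.181 TPM in mimic cells and 19.0 ± 1.38 TPM in control cells (SD, n = 3 each), PROX1 measured 1.85 ± 0.273 TPM in mimic cells and 1.77 ± 0.291 TPM in control cells, and PDPN was listed at 0 in all 6 libraries. The groups of LYVE1 did not overlap, with the mimic libraries higher (limma unadjusted p = 0.036, adjusted p = 0.411). Of all tested genes 3.05% had an unadjusted p below 0.05 with the higher mean in mimic cells. Of the 5 lymphatic markers 2 could be tested and 0 passed. Their summed level was 23.4 to 24.1 TPM in mimic libraries and 19.2 to 22.1 TPM in control libraries. The part of these markers' cells in the FLT4 values was not tested.

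**Figure D1:**
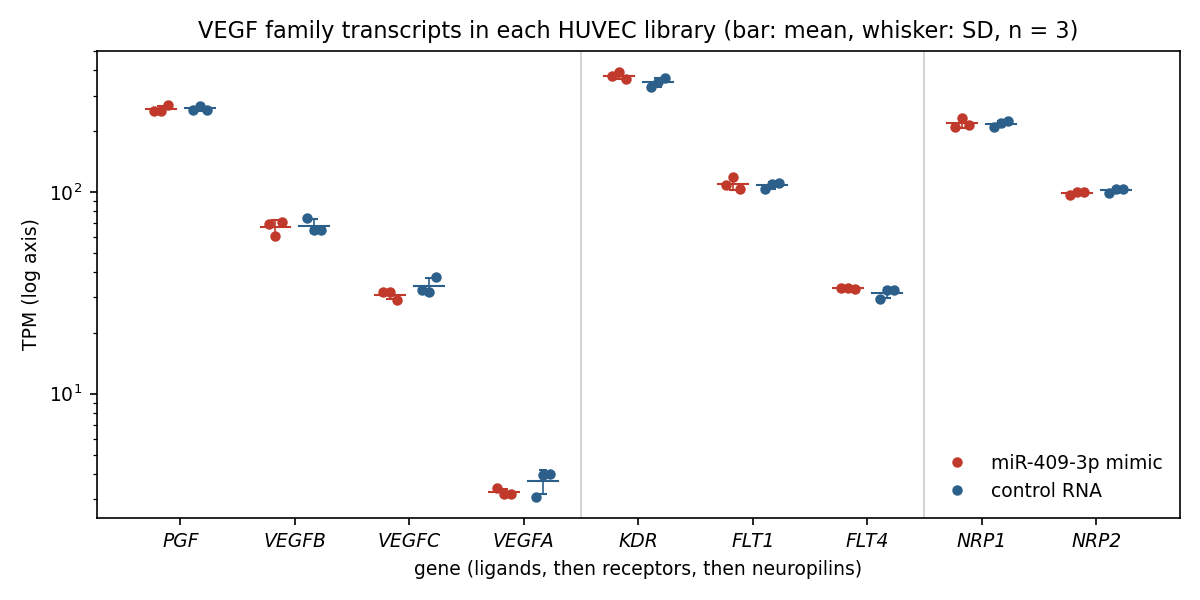
Level of each VEGF family transcript in TPM (log axis) in 3 miR-409-3p mimic libraries (left, red) and 3 control libraries (right, blue), with the mean as a bar and the SD as a whisker. KDR, PGF and NRP1 stand highest and VEGFA lowest, at 3.09 to 4.02 TPM, and FLT4 is the 1 gene whose groups do not overlap.

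The neuropilins were level between the groups. NRP1 measured 209, 231 and 215 TPM in mimic libraries, against 210.5, 218 and 225 TPM in control libraries. The group means were 218 ± 11.4 TPM in mimic cells and 218 ± 7.41 TPM in control cells (SD, n = 3 each), a log2 fold change of 0.0014 with an interval of -0.13 to 0.13. NRP2 measured 96.2, 100.2 and 99.9 TPM in mimic libraries, against 98.5, 103 and 103 TPM in control libraries. Mimic library 1 was the lowest of all 6, and the groups overlapped (log2 fold change -0.04, interval -0.15 to 0.07, limma adjusted p = 0.897). NRP1 shares 561 nt, 4.87% of its exon length, with the antisense gene AL121748.2, which measured 2.20 to 4.32 TPM in mimic libraries and 2.78 to 3.61 TPM in control libraries. VEGFA and NRP2 share 1.3% and 1.06% of theirs with antisense genes, and whether strand was used in counting is not given in the sources used here.

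These comparisons were precise for most members. On the TPM + 1 scale, the 95% interval lay within a 1.2-fold change in either direction for 7 of 9 members and within 1.5-fold for all 9. The exceptions at 1.2-fold were VEGFA and VEGFC. Their intervals for the ratio of TPM + 1, mimic over control, were 0.757 to 1.10 and 0.807 to 1.03. The added 1 TPM narrows the ratio of VEGFA, the lowest member. Its log2 fold change was -0.13 here, -0.16 with 0.1 TPM added instead and -0.17 with voom on recovered reads. Standard errors ran from 0.05 for NRP2 to 0.12 for VEGFA on the log2 scale, and 8 of 9 were below the median of all tested genes, 0.08. The spread of NRP2 libraries about their group means was smaller than that of 97.0% of tested genes, and that of PGF smaller than that of 93.5%. All members but VEGFA lay above 63.7% to 97.0% of tested genes in level. Spread was not compared with that of genes of like level. Read counts could be recovered from the values, with 349 to 502 reads per library for VEGFA and 17336 to 22125 for KDR. The smallest count of VEGFA gives a counting error of 5.35%, and that of KDR 0.759%.

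**Figure D2:**
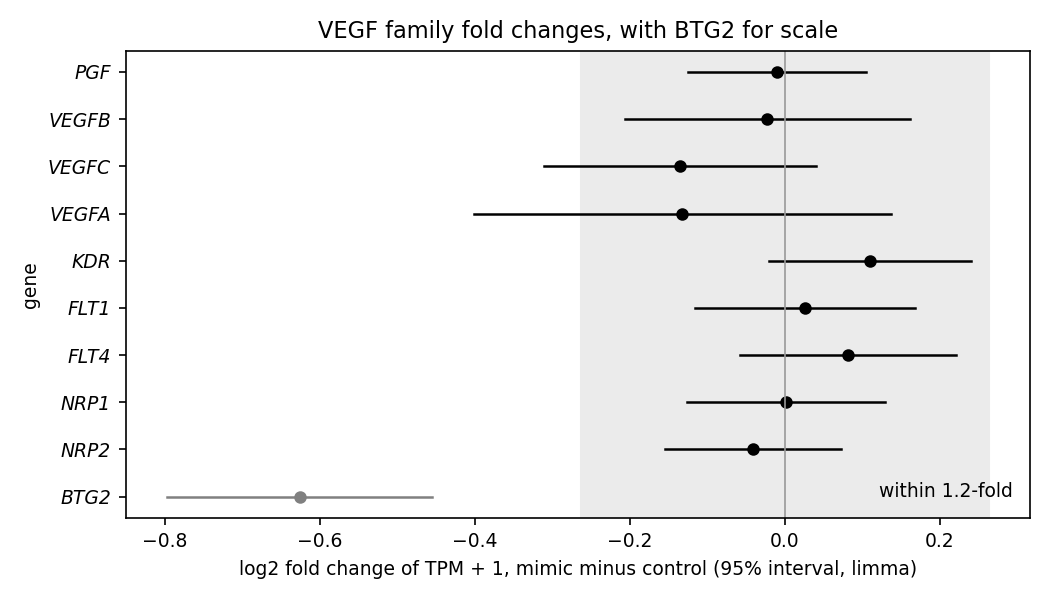
Log2 fold change of TPM + 1, mimic minus control, for the 9 VEGF family genes (black) and BTG2 (grey), with 95% limma intervals and a shaded band for changes within 1.2-fold. The intervals of 7 members lie inside the band and that of VEGFA reaches -0.40, while BTG2 lies at -0.63.

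The make-up of the receptors was examined as shares of summed TPM. KDR took 72.5%, 72.2% and 72.7% of the summed FLT1, KDR and FLT4 level in mimic libraries, against 71.3%, 71.3% and 71.8% in control libraries. Every mimic library was above every control library, by 0.988 percentage points on average. The two-sided exact permutation p was 0.1, the smallest that 3 libraries against 3 allow, and 0.55 after Benjamini-Hochberg adjustment over the 11 shares and sums compared. With quantile scaling the difference was 0.68 points and the exact p was 0.2. FLT1 took 21.1% ± 0.515 of the receptor level in mimic cells and 22.1% ± 0.278 in control cells (SD, n = 3 each, exact permutation p = 0.1, adjusted 0.55). FLT4 took 6.41% ± 0.264 in mimic cells and 6.44% ± 0.128 in control cells. The shares of KDR, FLT1 and FLT4 make up the whole receptor level, so the lower FLT1 share mirrors the higher KDR share. It is not a separate result, and the 11 comparisons are not independent.

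NRP2 made up 31.5%, 30.2% and 31.8% of the neuropilin level in mimic libraries, against 31.9%, 32.1% and 31.4% in control libraries (exact permutation p = 0.3). Mimic library 2 held the lowest share, and the difference of -0.636 percentage points became -0.177 without it. Of the ligand level, PGF took 70.6%, 72.5% and 72.1% in mimic libraries, against 69.9%, 72.5% and 70.5% in control libraries (exact permutation p = 0.4). VEGFB took 18.7% ± 1.13 in mimic cells and 18.7% ± 1.41 in control cells (SD, n = 3 each, exact permutation p = 1). The summed receptor level was 516, 544 and 500.4 TPM in mimic libraries, against 463, 494 and 510.0 TPM in control libraries (exact permutation p = 0.2), and neither the ligand nor the neuropilin sum had an exact p below 0.5.

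**Figure D3:**
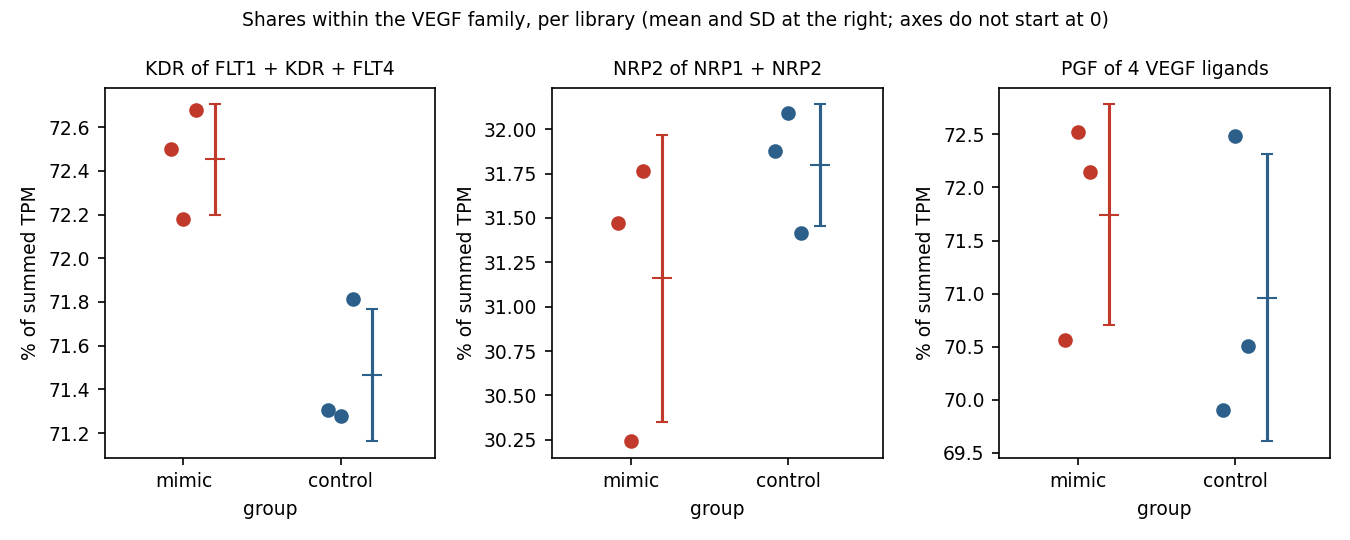
Share of KDR in the receptor level, of NRP2 in the neuropilin level and of PGF in the ligand level, in % of summed TPM, for 3 mimic libraries (left, red) and 3 control libraries (right, blue), with mean and SD beside the points. The KDR share is 72.2% to 72.7% in mimic and 71.3% to 71.8% in control libraries, and the other shares overlap.

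The order of the levels over all 6 libraries was KDR (mean 363 TPM), PGF (258), NRP1 (218), FLT1 (109), NRP2 (100.2), VEGFB (67.6), VEGFC (32.6), FLT4 (32.4) and VEGFA (3.47 TPM). VEGFC and FLT4 were the only neighbours whose ranges overlapped, and VEGFC was the higher in 2 of 6 libraries. All other neighbours kept their order in 6 of 6 libraries. KDR lay above 97.0% of tested genes, PGF above 95.5% and VEGFA above 17.5%.

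The order depends on the gene length behind TPM. The length that turned all 6 values into whole reads was 14431 nt for VEGFA, the union of all its annotated exons, whereas its longest annotated coding transcript has 3535 nt. For PGF the length that gave whole reads was 5804 nt and the longest coding transcript 1927 nt. For KDR they were 6341 and 6055 nt. Neither 5804 nor 6341 nt equals the GENCODE 29 exon union, which is 5962 nt for PGF and 6563 nt for KDR. Divided by the longest coding transcript in place of the deposited length, VEGFA came to 14.2, PGF to 777, NRP1 to 427, KDR to 380, NRP2 to 209 and FLT1 to 193 TPM. PGF and NRP1 then stood above KDR and NRP2 above FLT1, while VEGFA stayed lowest. The shares moved with the length too. On the transcript length KDR took 61.7% of the receptor level in mimic cells and 60.5% in control cells, and PGF took 85.8% of the ligand level in mimic cells and 85.3% in control cells. VEGFB then took 8.31% of the ligand level in mimic cells and 8.34% in control cells. These rescaled values serve for comparison among the members only, and the choice of length does not touch the fold change of a gene between groups beyond the pseudocount.

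**Figure D4:**
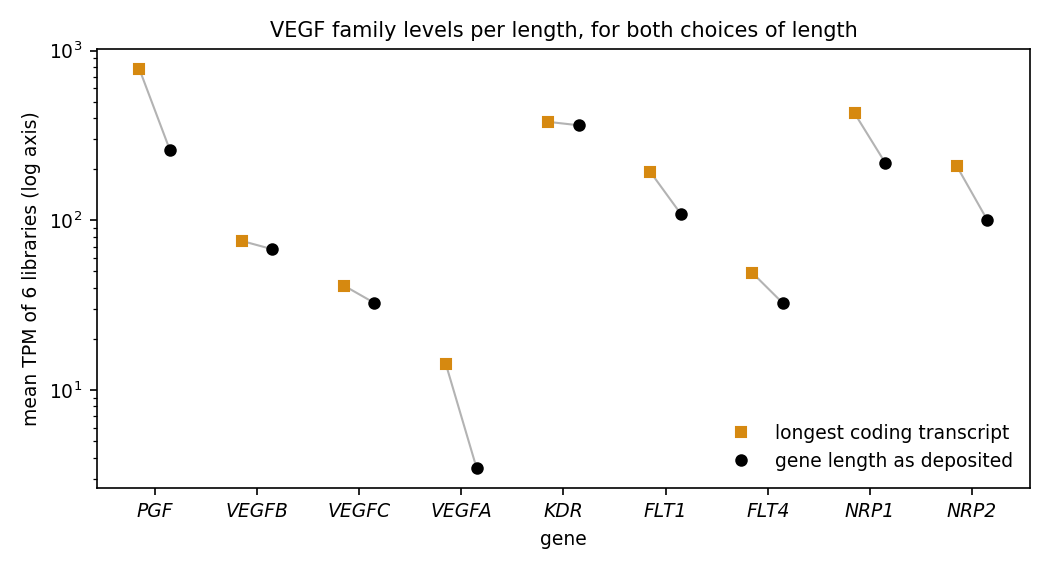
Mean TPM over 6 libraries (log axis) of each VEGF family gene with its length taken as that of the longest annotated coding transcript (left, orange squares) or as deposited (right, black circles). PGF stands at 777 TPM on the transcript length and 258 TPM as deposited, VEGFA at 14.2 and 3.47 TPM, and KDR at 380 and 363 TPM.

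The rest of the VEGF pathway was followed through 7 lists, 154 genes in all, of which 135 could be tested. Of these, 4 rose and 2 fell by limma with Benjamini-Hochberg adjustment, where 0.132% of all tested genes rose and 0.3% fell. The median log2 fold change of the 135 was 0.01, against -0.02 for all tested genes. The lists were drawn up with earlier results on these libraries known, so this count is not independent evidence of a direction. No gene passed among 35 of signalling below KDR (VEGFR2), 23 of receptor phosphatases and trafficking, 15 of ligand processing and matrix binding, 9 neuropilin partners or 5 related ligands and receptors. Of these 5 lists, CBLB, PTPRB and SH2D2A had an unadjusted p below 0.05, each with the lower mean in mimic cells, and 7.64% of all tested genes did so.

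CBLB, a ubiquitin ligase of the family that marks activated receptors for breakdown, measured 7.07, 7.43 and 7.77 TPM in mimic libraries, against 8.91, 9.25 and 10.1 TPM in control libraries (log2 fold change -0.30, limma adjusted p = 0.18). PTPRB, the endothelial phosphatase VE-PTP that restrains KDR, measured 45.5, 48.3 and 42.3 TPM in mimic libraries, against 48.3, 51.1 and 52.9 TPM in control libraries (-0.16, adjusted p = 0.43). The groups did not overlap in either gene, with the mimic libraries lower, as in 10.5% of tested genes, though mimic library 2 and control library 1 of PTPRB were both at 48.3 TPM. KIF13B, a kinesin that carries KDR to the cell surface, measured 19.0 ± 0.818 TPM in mimic cells and 17.5 ± 0.537 TPM in control cells (SD, n = 3 each, log2 fold change 0.11, limma adjusted p = 0.636). Its groups did not overlap either, with the mimic libraries higher, as in 5.16% of tested genes. The margin was minimal, with mimic library 2 and control library 2 of KIF13B both at 18.0 TPM. SH2D2A, the KDR adaptor TSAd, was at 2.06 ± 0.644 TPM in mimic cells and 3.16 ± 0.737 TPM in control cells (SD, n = 3 each), and its groups overlapped. The kinases PRKD1 and PRKD2, which act below KDR, had log2 fold changes of -0.17 and -0.11 and did not pass.

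Among the neuropilin partners the groups overlapped in the 3 genes of smallest p. PLXND1, a plexin that receives semaphorin signals, measured 336 ± 21.3 TPM in mimic cells and 322 ± 10.1 TPM in control cells. SEMA3F, a neuropilin ligand, measured 101 ± 8.93 TPM in mimic cells and 109 ± 8.29 TPM in control cells (SD, n = 3 each). PLXNA2, another plexin, had a log2 fold change of -0.06. Of the related ligands and receptors, PDGFA measured 20.2 ± 1.46 TPM in mimic cells and 23.4 ± 2.92 TPM in control cells (SD, n = 3 each), PDGFB had a log2 fold change of -0.08 and the receptor KIT one of 0.12. Of the genes of ligand processing and matrix binding, the heparan sulphate proteoglycans SDC4 and SDC2 had log2 fold changes of 0.17 and -0.16 and the heparanase HPSE one of -0.15. The groups of SDC2 did not overlap, with the mimic libraries lower, as in 10.5% of tested genes. VEGFA binds such heparan sulphate chains, and none of these genes passed (limma adjusted p of 0.513 to 0.863).

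Among 26 tested regulators of VEGF and VEGF receptor transcripts, ZFP36 and KLF2 rose, ZFP36L1 fell and 23 did not pass. ZFP36 and ZFP36L1 encode related proteins that bind AU-rich elements and speed the decay of messenger RNAs, VEGFA among them. ZFP36 measured 23.0, 19.8 and 21.2 TPM in mimic libraries, against 9.06, 9.95 and 10.5 TPM in control libraries (log2 fold change 1.04, limma adjusted p = 0.00507). ZFP36L1 measured 78.0, 83.0 and 83.6 TPM in mimic libraries, against 99.5, 107 and 109 TPM in control libraries (-0.36, adjusted p = 0.044). The groups stood apart in both genes, in opposite directions. Of all tested genes, groups stood apart with the mimic libraries higher in 5.16% and lower in 10.5%. KLF2, a flow-responsive factor that lowers KDR expression in endothelium, measured 46.6, 46.6 and 61.3 TPM in mimic libraries, against 22.6, 23.7 and 25.3 TPM in control libraries (1.07, adjusted p = 0.00619). Mimic library 3 was the high one, and the groups stood apart. ZFP36, ZFP36L1 and KLF2 were named for passing the threshold, so their separation adds no evidence of its own.

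Among 22 tested genes that VEGF induces in endothelial cells, EGR1 and SPRY4 rose, DLL4 fell and 19 did not pass. In this list 10 genes had an unadjusted p below 0.05 with the higher mean in mimic cells, and 2 with the lower mean. Of all tested genes 3.05% and 7.64% did so. The median log2 fold change of the list was 0.04, against -0.02 for all tested genes. This list too was drawn up with earlier results on these libraries known, so its counts are not independent evidence of a direction. EGR1, an immediate early transcription factor, measured 20.2, 18.3 and 24.0 TPM in mimic libraries, against 9.31, 10.4 and 11.6 TPM in control libraries (log2 fold change 0.93, limma adjusted p = 0.0143). SPRY4, a feedback inhibitor of growth factor signalling, measured 21.8, 20.6 and 24.1 TPM in mimic libraries, against 11.0, 12.8 and 14.1 TPM in control libraries (0.76, adjusted p = 0.0185). DLL4, the Notch ligand that VEGF raises in tip cells, measured 91.7, 89.6 and 88.3 TPM in mimic libraries, against 112, 113 and 113 TPM in control libraries (-0.32, adjusted p = 0.0321). The groups stood apart in all 3 genes, and in 15.7% of all tested genes. These 3 were named for passing the threshold, so their separation adds no evidence of its own. Many of the listed genes also answer signals other than VEGF.

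The pathway calls differed in how far they depended on single libraries and settings. Whichever of the 6 libraries was left out, neither DLL4 nor ZFP36L1 passed. The 4 rises became 2 without mimic library 1, 1 without control library 1 and 2 without control library 2, and 4 with each of the others left out. Of 15 other settings tried, ZFP36 passed in 15, KLF2 in 13, EGR1 and SPRY4 in 10 each, and DLL4 and ZFP36L1 in 6 each.

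**Figure D5:**
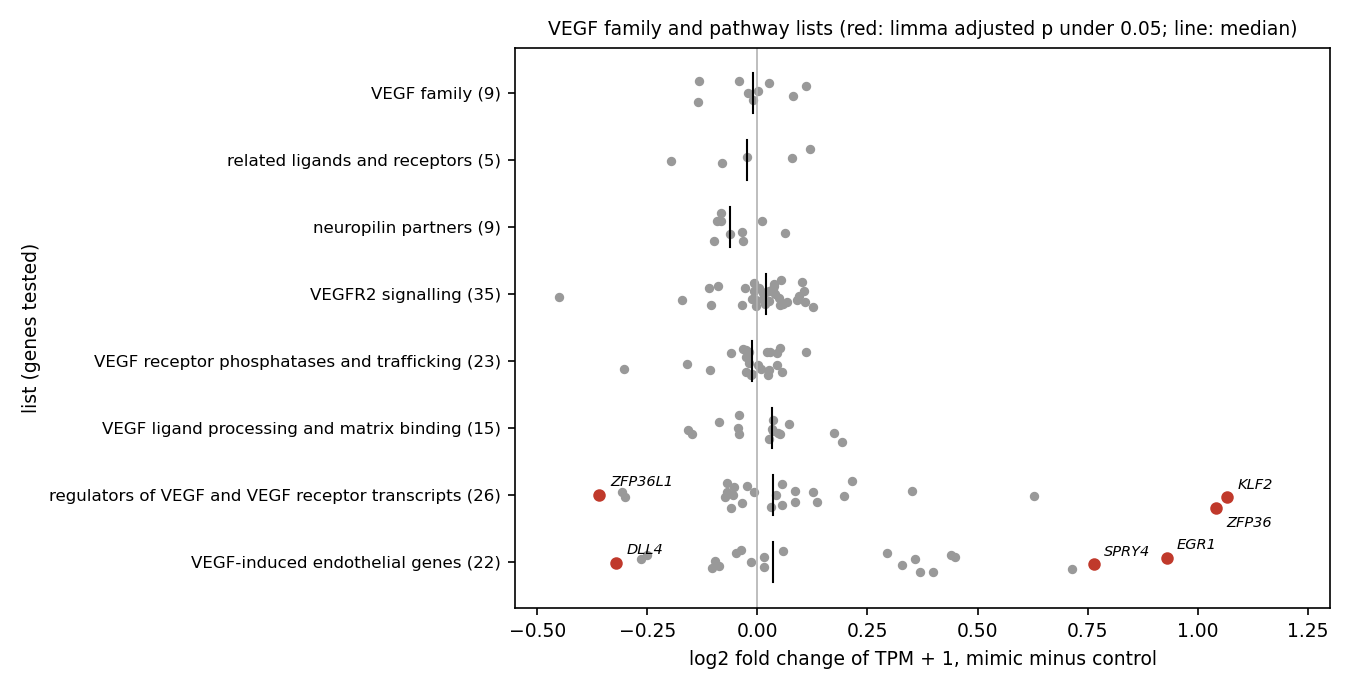
Log2 fold change of TPM + 1, mimic minus control, of each tested gene in the VEGF family and in 7 pathway lists, with the median as a line and genes past a limma adjusted p of 0.05 in red. The VEGF family lies between -0.13 and 0.11, and the 6 red genes lie in the lists of regulators and of VEGF-induced genes.

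Over the 6 libraries, the genes with levels most like those of KDR were MED13L (Pearson r = 0.995) and WDFY1 (0.994), for FLT1 WWP1 (0.997) and OSBPL9 (0.996), for FLT4 CDK14 (0.996) and LATS2 (0.994), and for VEGFC KIF21A (0.993) and PCMT1 (0.992), on log2(TPM + 1). These are the top of 10550 genes compared over 6 points that share library and depth. As many as 653 genes had an r over 0.9 with FLT1, 309 with KDR, 95 with FLT4 and 139 with VEGFC, so the values only describe these libraries.

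The libraries held 29.8 to 35.8 M assigned reads and correlated at 0.988 to 0.992 across genes, as closely between groups as within them. Endothelial markers were high in both groups. PECAM1 measured 1092 ± 58.2 TPM in mimic cells and 1048 ± 27.8 TPM in control cells, and VWF measured 939 ± 21.0 TPM in mimic cells and 899 ± 50.6 TPM in control cells (SD, n = 3 each). Of 11 endothelial markers 0 passed, and they summed to 5173 to 5371 TPM in mimic libraries and 4963 to 5301 TPM in control libraries. The leukocyte gene PTPRC and the red cell gene HBB were listed at 0 in all libraries, and markers of leukocytes and of blood and platelets summed to 0.105 to 0.613 and 0.292 to 0.579 TPM in mimic libraries, and to 0.259 to 0.425 and 0.0663 to 0.125 TPM in control libraries. The leukocyte gene CD14 was at 0 to 0.522 TPM in mimic and 0 to 0.220 TPM in control libraries. LYZ was at 0 to 0.225 TPM in mimic and 0.139 to 0.262 TPM in control libraries. The platelet gene PF4 measured 0.203, 0.559 and 0.219 TPM in mimic libraries and 0 in all control libraries. ITGA2B was at 0.0203 to 0.119 TPM in mimic and 0.0663 to 0.125 TPM in control libraries. These genes were too low to test. Of the fibroblast, epithelial and smooth muscle markers, 0 of 7 tested passed, and COL1A2 measured 8.61 ± 0.920 TPM in mimic cells and 8.03 ± 1.51 TPM in control cells (SD, n = 3 each). RGS5, listed as a pericyte marker, was at 514 ± 22.9 TPM in mimic cells and 501 ± 10.4 TPM in control cells, whereas ACTA2 was at 8.62 ± 0.744 TPM in mimic cells and 8.71 ± 1.28 TPM in control cells. KRT19, an epithelial keratin, measured 15.4 ± 2.51 TPM in mimic cells and 17.6 ± 1.11 TPM in control cells (SD, n = 3 each). The epithelial marker EPCAM was at 2.09 ± 0.509 TPM in mimic cells and 2.14 ± 0.461 TPM in control cells. The fibroblast marker COL3A1 was at 4.19 ± 1.35 TPM in mimic cells and 3.87 ± 0.370 TPM in control cells.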

How the data were processed

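Each library had its own table, in which the authors deposited TPM for 45372 genes under Ensembl IDs. GRCh38.p13 and hg38 are named in the submitters' processing notes, whereas aligner, counter and annotation were not given in the sources used here. Per the labels' protocols, mRNA enrichment from 500 ng RNA, 13 PCR cycles and single 75-cycle reads were used, and the design text says that 4 technical replicates were pooled per RNA sample. TPM was tested on log2(TPM + 1) with limma 3.58.1 (R 4.3.3, trended prior, group as the only term, two-sided). Genes needed 1 TPM in 3 libraries. Adjusted p-values are Benjamini-Hochberg over the 13680 tested genes, with a threshold of 0.05. Shares were compared by two-sided exact permutation tests (scipy 1.17.1).

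Values of 13676 of the 13680 tested genes (99.97%) became whole reads within 0.01 reads in all 6 libraries for a single gene length. That length was the GENCODE 29 exon union for 7158 of them. Reads carry no molecular identifiers, so counting errors cover counting only. A gene name table gave symbols for 45102 IDs, and lengths and 3′ ends from GENCODE 29. Alternatives covered pseudocount, filter, scaling, prior, replicate block, each library left out and, chosen after seeing the data, voom on the recovered reads and the transcript length.

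The members and lists were chosen with earlier results of these data known. The rule for named genes took all members and BTG2, pathway genes past the threshold and the 3 of smallest p per list, the 2 highest markers per list, and the 2 genes most like each of FLT1, KDR, FLT4 and VEGFC; some markers are given as list sums. Beyond that rule, VEGFD, PTPRC, HBB and PDPN were chosen after their values were seen.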

Additional observations from a re-analysis of the deposited data

How the results depend on the processing

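The count of VEGF family members past the threshold was 0 under all 15 other settings. KDR reached an unadjusted p under 0.05 with median-of-ratios scaling (0.0186, adjusted 0.285) and with voom on recovered reads (0.0367, adjusted 0.349), and was above 0 in every setting. Its log2 fold change was 0.07 without control library 1 (p 0.252, adjusted 0.732) and 0.08 without mimic library 2 (p 0.209), and over all settings its adjusted p ran from 0.285 to 0.885. Single libraries also moved VEGFC (-0.06 without control library 3), FLT4 (0.03 without control library 1), NRP2 (-0.02 without mimic library 1, -0.06 without control library 1) and VEGFA (-0.23 without control library 1, -0.08 without control library 3). Of 134 member fold changes under other settings, 11 turned sign, all of genes near 0: PGF at 0.0114 with median-of-ratios scaling and NRP1 at -0.0134 with quantile scaling, and with 1 library left out VEGFB (-0.0674 to 0.0509), PGF (-0.0413 to 0.0093), FLT1 (-0.0254 to 0.068) and NRP1 (-0.0403 to 0.0311). The difference in the VEGFB share, 0.0298 percentage points, ran from -0.433 to 0.841 with 1 library left out and was -0.0247 on the longest coding transcript length. The KDR share difference stayed between 0.875 and 1.16 points with 1 library left out, was 1.19 on that length and was lowest, 0.68, with quantile scaling (exact p = 0.2). The NRP2 share difference ran from -0.938 to -0.177 points with 1 library left out and was -0.361 with quantile scaling.

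Counts of called genes moved more. Without a filter, all tested genes gave 6 higher and 5 lower (against 18 and 41 as reported) and pathway genes 1 and 0 (against 4 and 2). An expression floor of 5 TPM gave 36 and 79 of all genes and 8 higher pathway genes. The prior mattered too: untrended, it gave 10 and 10 of all genes and 2 and 0 pathway genes; robust, 37 and 82 and 8 higher pathway genes. Median-of-ratios scaling called 33 higher genes and quantile scaling 34, with 8 higher pathway genes each. By voom the counts were 66 and 173 of all genes and 10 and 5 pathway genes. Leaving out 1 library gave 3 to 20 higher and 5 to 27 lower of all genes, and 1 to 4 higher and 0 to 0 lower pathway genes. Fewer samples or other genes tested enter by construction, and the other causes were not tested.

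The replicate numbers did not pair the libraries: deviations of same-numbered libraries correlated at 0.03, -0.09 and -0.11. The replicate block gave 9 higher and 5 lower of all tested genes, 4 higher and 0 lower pathway genes and 0 members. Depth limits VEGFA most, with 349 reads in its smallest library.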
